A study of Mus musculus with 9 samples.

Results

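The 8 genes described here, Mbp, Mog, Mag, Mobp, Mal, Cnp, Cldn11 and Opalin, encode proteins of the myelin sheath or of the mature oligodendrocyte that makes it. They were taken by name from the 21853 protein-coding genes measured, and each was followed through all 3 groups of mice. Polyadenylated RNA from brain tissue of mice was sequenced as 9 libraries, and the injection site named for the series was the striatum. The WT-Control group (3 libraries) was wild type and received pAAV-GFAP(pro)-Control-mCherry. The HD-Control group (3 libraries) was of the Huntington disease strain N171-82Q and received that same control vector. The HD-WNT5B group (3 libraries) was N171-82Q and received pAAV-GFAP(pro)-WNT5B-P2A-mCherry. All 3 groups therefore carried an AAV, a GFAP promoter and mCherry, and no group was left without a vector. N171-82Q mice express an N-terminal fragment of mutant huntingtin from a prion protein promoter, so the protein is made in many neurons and not only in the striatum. The GFAP promoter is active mainly in astrocytes, so oligodendrocytes were not the cells the vector was built for. Age, sex and the animal behind each library were not in the labels. If libraries shared an animal, the p-values given here would measure technical spread alone. Libraries within a control group were very alike, with a median SD of log2 values of 0.039 in WT-Control and 0.033 in HD-Control. Whether that spread holds any difference between animals was not tested, so the p-values cannot be read as measuring spread between animals.

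Oligodendrocytes wrap axons in layers of their own plasma membrane, which are pressed together into compact myelin and sealed at the edges. Compact myelin is held by basic proteins on its cytoplasmic face, while other proteins sit on the outer surface, at the innermost layer facing the axon, in the cytoplasmic channels or in the tight junctions between layers. Most of these genes are switched on together when an oligodendrocyte matures, under the transcription factors SOX10, OLIG2 and MYRF.

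The stretches of promoter below are shown because several of the genes are known targets of those factors, and the genes differed in how they moved between groups. They come from RefSeq promoter windows on GRCm38.p6, each running from 250 bases before to 50 bases after an annotated start site, and 7 of the 8 genes had a window (9 windows in all). Both strands were searched for ACAAAG (the core of the SOX motif), CTGGCAC or CTGGTAC (the MYRF motif), and the E-boxes CAGCTG and CAGATG, which bHLH factors such as OLIG2 bind. Each stretch is written 5′ to 3′ on the strand of its gene, and capitals mark a match of 1 of these motifs or of its reverse complement. No match overlapped another.
Mobp: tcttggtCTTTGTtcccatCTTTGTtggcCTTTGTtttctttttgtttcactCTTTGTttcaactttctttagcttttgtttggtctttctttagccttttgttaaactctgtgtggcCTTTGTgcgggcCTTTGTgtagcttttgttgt
Mag: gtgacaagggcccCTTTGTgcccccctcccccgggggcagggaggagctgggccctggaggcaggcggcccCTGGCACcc
Cnp: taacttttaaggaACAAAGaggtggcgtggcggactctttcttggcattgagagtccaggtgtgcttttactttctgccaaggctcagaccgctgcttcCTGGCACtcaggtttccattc
Mog: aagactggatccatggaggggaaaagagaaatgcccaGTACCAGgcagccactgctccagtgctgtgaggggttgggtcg
Opalin: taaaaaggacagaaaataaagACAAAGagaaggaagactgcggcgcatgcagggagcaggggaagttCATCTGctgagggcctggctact
The Mobp stretch lies at chr9:120149492-120149641 on the plus strand and holds 6 SOX cores, all as CTTTGT. The Mag stretch lies at chr7:30914923-30915002 on the minus strand and holds 1 SOX core and 1 MYRF motif. The Cnp stretch lies at chr11:100574759-100574878 on the plus strand and also holds 1 of each. The Mog stretch, at chr17:37023439-37023518 on the minus strand, holds 1 MYRF motif as GTACCAG. The Opalin stretch, at chr19:41077184-41077273 on the minus strand, holds 1 SOX core and 1 E-box. The SOX core was found in windows of 4 of the 7 genes (Mobp, Mag, Cnp and Opalin), against 18.7% of all 32851 windows of the same length. The MYRF motif was found in 4 (Mog, Mag, Cnp and Opalin), against 7.1% of all windows. CAGCTG and CAGATG were each found in 1 gene, Opalin, against 16.3% and 17.2% of all windows. In the windows of Mal and Cldn11 none of these letters occurred. The counts are of genes and the shares are of windows, so they are not like for like. Mag had 3 windows, and a gene with more windows has more chances of a match. These are matches of letters only, and binding was not measured.

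**Figure D1:**
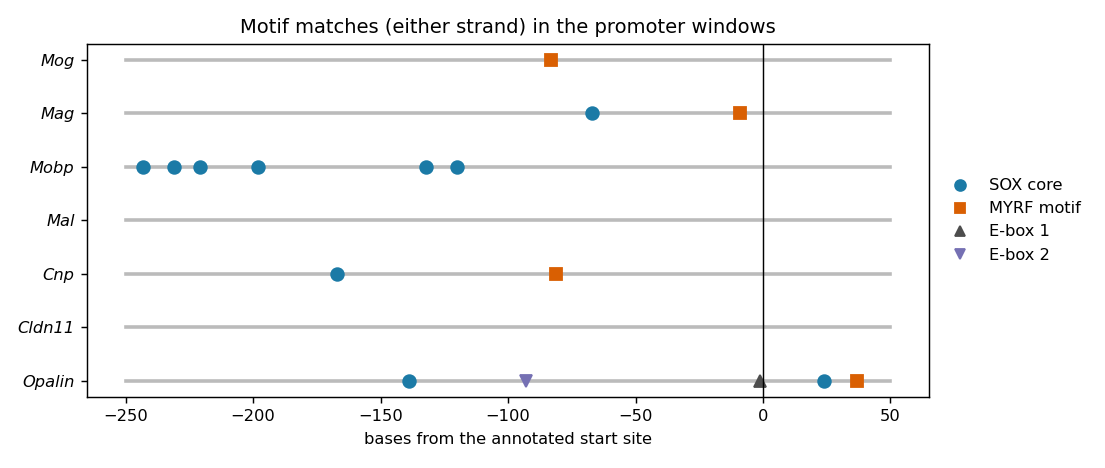
Motif matches in the promoter window of each gene that had one, by distance in bases from the annotated start site (x axis), with circles for the SOX core, squares for the MYRF motif and triangles for the E-boxes CAGCTG (E-box 1) and CAGATG (E-box 2). For Mag, 1 of its 3 windows is drawn, the one that holds the stretch printed above. Mobp holds 6 SOX cores in the distal part of its window, and the windows of Mal and Cldn11 hold none of the motifs.

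The libraries of the HD-WNT5B group stood apart from the other 6. Each value is a read count divided by 1 factor per library, and not by gene length. The sum over all genes was 54.6 to 54.7 M in WT-Control, 55.6 to 55.8 M in HD-Control and 79.9 to 83.8 M in HD-WNT5B libraries. Read depth worked out from the step between low values was 67.8 to 77.8, 69.8 to 90.6 and 37.3 to 52.1 M reads, and 14291 to 14588 genes were above 0 in HD-WNT5B libraries against 17027 to 17349 in the others. Replicates also scattered more there, with a median SD of log2 values of 0.233 against 0.039 in WT-Control and 0.033 in HD-Control (over 13081 genes whose mean reached 100). Mouse Wnt5b, the gene named in the vector, was at 184, 22.5 and 212 in the HD-WNT5B libraries and at 44.2 to 74.6 in the other 6. The library labelled HD-WNT5B-2 was thus below all 6 control libraries, with about 14 reads on the gene, while the other two were above them, and the difference from HD-Control was not called (log2 fold change 0.88, SE 0.73, limma adjusted p = 0.298). Whether the vector carries the mouse WNT5B sequence is not stated in the labels, and reads from the vector were not counted separately here. Results for the 8 genes are therefore given with and without the library labelled HD-WNT5B-2.

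Between HD-Control and WT-Control, groups given the same vector whose labels differ in the strain, 7 of the 8 myelin genes fell and none rose. The strain cannot be told apart here from a difference in how the tissue was taken or the libraries prepared. The surface protein genes Mog and Mag and the late marker Opalin fell most, to between about 0.38 and 0.51 of their WT-Control level. Cnp fell less, Cldn11, Mobp and Mal fell by a small amount, and Mbp was not called. Over all 15411 genes tested with limma, 45.1% (6957) were called at an adjusted p under 0.05, 20.7% lower and 24.5% higher. The fit shares its spread with the more scattered HD-WNT5B libraries. With a weight per group 12779 genes were called, and with only the 6 libraries compared 12908, of which 6144 and 6198 were lower. The median log2 fold change was -0.54 for the 8 genes and 0.02 for all genes.

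Mog encodes the glycoprotein on the outermost surface of the sheath (chr17:37010743-37023398, minus strand, mm10). Its normalised read counts were 4675, 4764 and 4784 in WT-Control and 1772, 1909 and 1776 in HD-Control libraries. Every HD-Control library lay far below every WT-Control library, and Mog was 2.61-fold lower (log2 -1.38, SE 0.06, adjusted p = 1.6e-06). Mag encodes the adhesion molecule of the innermost layer, which binds the axon (chr7:30899176-30914873, minus strand). It was at 16128, 15981 and 15795 in WT-Control and at 8042, 8069 and 8258 in HD-Control libraries. The ranges were again well apart (log2 -0.97, SE 0.03, adjusted p = 5.0e-07).

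Opalin encodes a transmembrane sialylglycoprotein found in oligodendrocytes (chr19:41061710-41077113, minus strand). It was at 1690.5, 1647 and 1649 in WT-Control and at 792, 883 and 797 in HD-Control libraries. The groups were far apart, with Opalin 2.02-fold lower in HD-Control (log2 -1.01, SE 0.06, adjusted p = 7.4e-06). Cnp encodes the phosphodiesterase that helps to keep the cytoplasmic channels of myelin (chr11:100574904-100591729, plus strand). It fell from 27328, 27109.6 and 26497 to 16158, 16163 and 16542 (log2 -0.73, SE 0.07, adjusted p = 5.4e-05). Of the exon bases of Cnp, 4.23% are shared with Dnajc7 on the opposite strand, and the labels do not say that the library kept strand, so some reads may belong to either gene.

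Cldn11 encodes the claudin of the tight junctions between myelin layers (chr3:31149920-31164324, plus strand). It was at 10538, 10251 and 10507 in WT-Control and 8187, 8249 and 8070.4 in HD-Control libraries (log2 -0.35, SE 0.05, adjusted p = 4.9e-04). Mobp, a small basic protein of compact myelin (chr9:120149707-120181484, plus strand), was at 26533, 26595 and 26251 and then at 22599, 23205 and 22676. Although the change was small, the groups did not overlap (log2 -0.21, SE 0.03, adjusted p = 4.8e-04). Of its exon bases, 1.15% are shared with the unnamed transcript Gm38642. Mal, a proteolipid that sorts membrane proteins to the sheath (chr2:127633226-127656695, minus strand), went from 25479.7, 25654 and 25869.7 to 22433, 22249.7 and 22449.9. This too was a small change without overlap (log2 -0.20, SE 0.02, adjusted p = 2.4e-04).

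Mbp encodes the basic protein that joins the cytoplasmic faces of compact myelin. It was at 229966, 225177 and 225166 in WT-Control and at 221400, 221677 and 223843 in HD-Control libraries. The HD-Control values were all lower, but by little, and the gene was not called (log2 -0.03, 95% interval -0.11 to 0.05, adjusted p = 0.538). With a separate spread for each group, or with only the 6 libraries compared, the same difference was called (adjusted p = 0.0421 and 0.023), and with the trend on transcript length and GC content removed it was 0.01 in the other direction. All 8 genes had every HD-Control value below every WT-Control value. That was so for 40.4% of all genes, a further 43.6% did not overlap in the other direction, and 84% did not overlap in all, so separation of 3 against 3 libraries was common here.

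**Figure D2:**
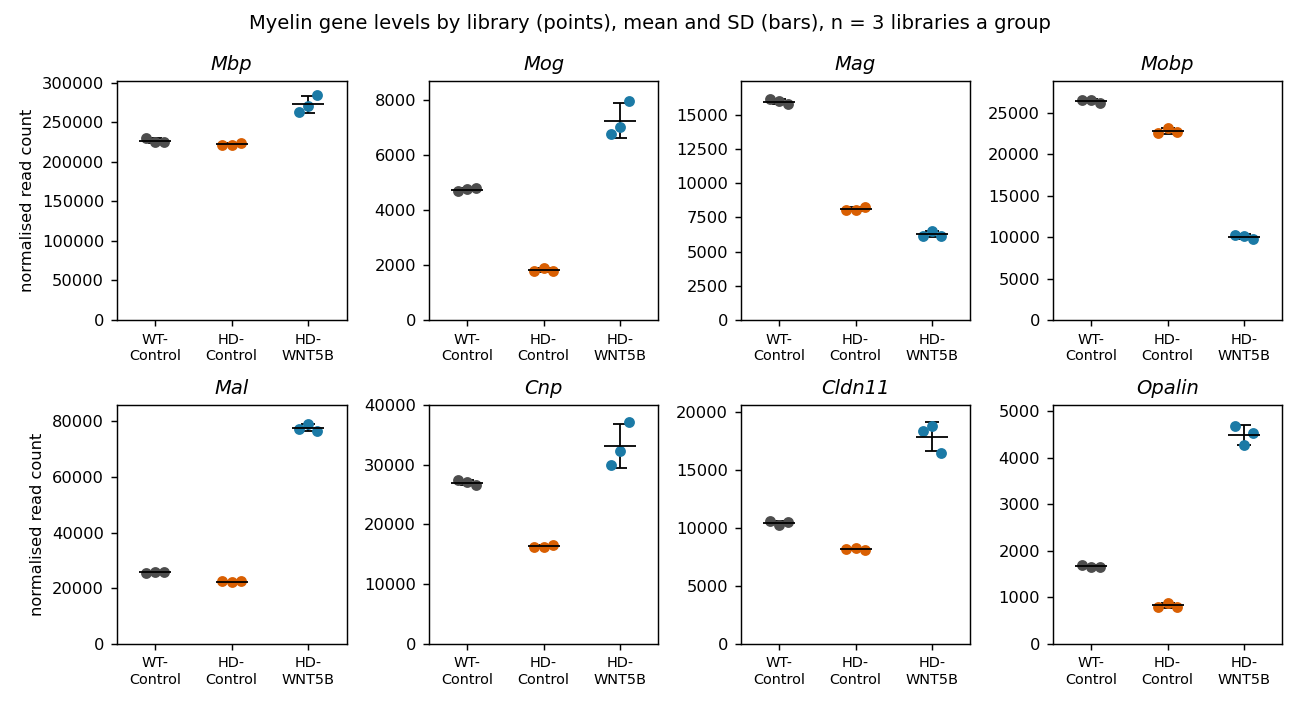
Normalised read count (y axis, from 0) of each gene in each library (points), with the group mean and SD (bars, n = 3 libraries a group). Mog, Mag and Opalin drop clearly from WT-Control to HD-Control, Mbp differs little, and in HD-WNT5B libraries Mal and Opalin lie far above both control groups while Mobp lies far below.

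Fewer oligodendrocytes and less RNA per oligodendrocyte cannot be told apart in bulk tissue. Other cell types moved in the same comparison. The summed level of 8 astrocyte markers was 323907 to 327106 in WT-Control and 206653 to 208124 in HD-Control libraries (6 lower, 1 higher and 1 not called). For 8 microglia markers the sums were 30958 to 31396 and 15603 to 15615 (7 lower, 1 not called). For 6 cortical and thalamic neuron markers they were 23202 to 23896 and 9693 to 9765 (all 6 lower), against 364682 to 367800 and 369626 to 374058 for 8 striatal projection neuron markers (3 higher, 5 lower). The part of the tissue taken was not in the labels, and the part these differences have in the fall of the myelin genes was not tested.

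Between HD-WNT5B and HD-Control, groups of mutant mice whose labels differ in the vector, 6 of the 8 genes rose and 2 fell. The HD-WNT5B libraries also differed together in value sum, depth and spread. The vector cannot be told apart here from a difference in how those libraries were prepared or processed. Opalin rose 5.44-fold, Mog 3.97-fold, Mal 3.47-fold, Cldn11 2.18-fold and Cnp 2.02-fold. Mobp fell 2.27-fold and Mag fell by a smaller amount, and Mbp rose slightly. Of all genes tested, 77.5% were called by limma, 35.8% higher and 41.7% lower, so that 8 calls of 8 stand close to the background. The median of all genes was -0.23 at the deposited scale and -0.76 with each library scaled to the same total, and changes are therefore also given after taking off the median at the deposited scale. The median of the 8 genes was 1.07.

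Opalin was at 4683, 4271 and 4527 in HD-WNT5B libraries, far above the 792 to 883 of HD-Control (log2 2.44, SE 0.06, limma adjusted p = 3.3e-09, and 2.67 above the median of all genes). Mog was at 6761, 7019 and 7966, again with a wide gap to the HD-Control libraries (log2 1.99, SE 0.06, adjusted p = 1.1e-08, 2.22 above the median). At the deposited scale Mag moved the other way from Mog. Mag was at 6155, 6526 and 6157, all well under the lowest HD-Control value of 8042 (log2 -0.37, SE 0.03, adjusted p = 8.7e-06). Measured from the median of all genes at the deposited scale, the change in Mag was only -0.14, at percentile 46.6 of all genes. With the trend on transcript length and GC content removed, Mag was at -0.80 from the median.

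The genes of compact myelin split in the same way. Mal reached 77288, 79056 and 76632, with little spread for this group (log2 1.79, SE 0.02, adjusted p = 8.3e-11, 2.02 above the median). Mobp was at 10315, 10095 and 9757, below every HD-Control library (log2 -1.18, SE 0.03, adjusted p = 2.2e-09, and -0.95 from the median). In HD-Control against WT-Control these genes had differed by nearly the same small amount (-0.20 for Mal and -0.21 for Mobp). Mbp was at 263443, 270433 and 284547 (log2 0.29, SE 0.03, adjusted p = 4.3e-05), but with each library scaled to the same total it changed direction, to -0.26 (adjusted p = 3.3e-04). Its difference from the median of all genes was 0.52 at the deposited scale and 0.50 with equal totals.

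Cnp was at 29969, 32307 and 37055, the widest relative spread among the 8 genes in this group (log2 1.02, SE 0.07, adjusted p = 1.1e-06, 1.25 above the median). Cldn11 was at 18291, 18763 and 16437, with all 3 values above the HD-Control range (log2 1.12, SE 0.05, adjusted p = 6.9e-08, 1.35 above the median). With the trend on transcript length and GC content removed, Mog was 1.57, Cnp 0.90 and Cldn11 0.76 above the median, each nearer to it. Opalin (2.87), Mal (2.04) and Mbp (0.73) were then further above the median, and Mobp (-1.15) further below. No gene of the set overlapped between the groups. Groups did not overlap for 78.7% of all genes, 36.2% higher and 42.5% lower. Without the library labelled HD-WNT5B-2 the same counts were called, 6 higher and 2 lower. The fold changes were then 2.48 for Opalin, 2.01 for Mog, 1.78 for Mal, 1.09 for Cldn11, 1.03 for Cnp, 0.30 for Mbp, -0.40 for Mag and -1.19 for Mobp on the log2 scale.

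**Figure D3:**
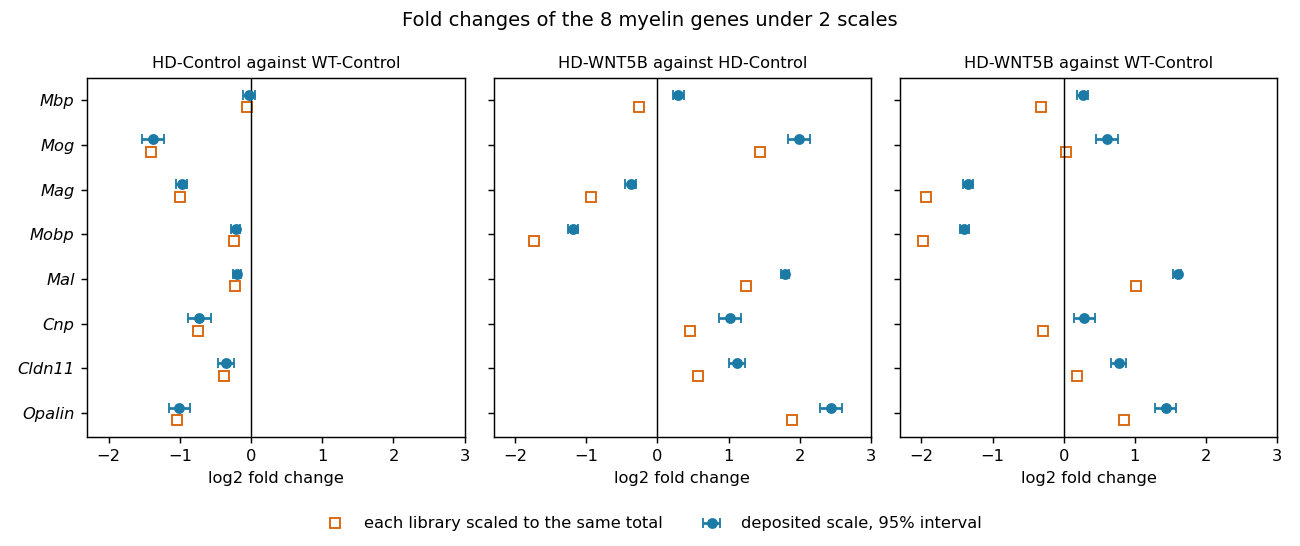
log2 fold change (x axis) of each gene in the 3 comparisons, at the deposited scale (filled circles with 95% intervals, n = 3 libraries a group) and with each library scaled to the same total (open squares). Between HD-Control and WT-Control the scales differ little; in both HD-WNT5B comparisons equal totals move every gene down, which turns Mbp from higher to lower in both and Cnp in the comparison with WT-Control.

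Beside these changes, the sums of cell type markers moved, and single markers of a type did not move together. The summed microglia markers were 45489 to 50945 in HD-WNT5B libraries (5 higher, 0 lower and 3 not called against HD-Control), and those of endothelial and mural cells 44387 to 54252 against 15381 to 15473 (4 higher, 3 lower, 1 not called). The 6 cortical and thalamic neuron markers summed to 15633 to 17536 against 9693 to 9765 in HD-Control (2 higher, 2 lower, 2 not called). Much of these sums came from 1 marker each. In HD-WNT5B libraries the highest cortical or thalamic marker had a mean of 15179, in a mean sum of 16823. The highest endothelial or mural marker had 28897 of 49317, and the highest microglia marker 19940 of 47532. The 8 general neuron markers summed to 237306 to 247565 against 271972 to 272850 (5 higher, 3 lower), and the 8 striatal projection neuron markers to 338954 to 354092 (3 higher, 3 lower, 2 not called). Astrocyte markers summed to 180271 to 192485 (2 higher, 4 lower, 2 not called). Within that type S100b, a calcium-binding protein, rose by 3.99 on the log2 scale (limma adjusted p = 2.0e-10), while the water channel Aqp4 fell by 3.43 (adjusted p = 8.7e-08). Schwann cells, the myelin-forming cells of nerves, also make several of the 8 proteins. Their markers summed to 4369 to 4588 in HD-Control and 9892 to 10736 in HD-WNT5B libraries, most of it from Pou3f1, a transcription factor that brain neurons express too. Of the 5 tested against HD-Control, 4 were higher, 0 lower and 1 not called. The Schwann cell gene Pmp2 was too low to be tested. Its mean was 6.58 in WT-Control and 2.64 in HD-Control, and it was at 0 in all HD-WNT5B libraries. The part of these other cell types in the changes of the myelin genes was not tested.

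Set side by side with WT-Control, HD-WNT5B libraries were higher for 6 of the 8 genes and lower for 2. This comparison shares its libraries with the other two and is not independent of them. Mal was 3.03-fold higher (log2 1.60, limma adjusted p = 1.4e-10), Opalin 2.7-fold (1.43, adjusted p = 8.6e-08) and Cldn11 1.71-fold (0.77, adjusted p = 7.8e-07). Mog was 1.52-fold higher (0.61, adjusted p = 2.7e-05), Cnp 1.22-fold (0.29, adjusted p = 0.00372) and Mbp 1.2-fold (0.27, adjusted p = 8.5e-05). The sizes of all these rises depended on the scale. With equal totals the log2 fold change was 1.02 for Mal, 0.85 for Opalin and 0.19 for Cldn11, which were still called (adjusted p = 1.1e-09, 4.2e-06 and 0.00171). Mog was then at 0.03 and not called (adjusted p = 0.736), and Cnp and Mbp changed direction, to -0.29 (adjusted p = 0.0064) and -0.32 (adjusted p = 9.0e-05). The median of all genes was -0.25 at the deposited scale and -0.80 with equal totals. Measured from it, these scales gave 0.85 and 0.83 for Mog, 0.53 and 0.51 for Cnp and 0.51 and 0.48 for Mbp. With the trend on transcript length and GC content removed, Mog was 0.16, Cnp 0.18 and Cldn11 0.38 above the median. Mal was then at 1.84, Opalin at 1.84 and Mbp at 0.75 above it. Mag and Mobp were 2.54-fold and 2.63-fold lower (log2 -1.35 and -1.40, adjusted p = 2.0e-09 and 7.6e-10), and they stayed lower under all scalings tried. Of all genes, 77.9% were called, 35.9% higher and 42.1% lower, and 79.4% did not overlap, 36.2% higher and 43.2% lower. Without the library labelled HD-WNT5B-2 the counts were again 6 higher and 2 lower.

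Levels can be compared between genes only per length. Divided by the length of the longest transcript, Mbp led in every group, at 47273 ± 577 per kb in WT-Control, 46343 ± 279 in HD-Control and 56871 ± 2241 in HD-WNT5B libraries (SD, n = 3). In WT-Control libraries Cnp (9289.9 ± 148) and Mal (9239.7 ± 70.3) followed with overlapping ranges, and then Mobp (8052 ± 55.8), Mag (6560.4 ± 68.5), Cldn11 (5579 ± 84.1), Mog (2782 ± 34.1) and Opalin (595 ± 8.8), each clear of its neighbours. In HD-Control libraries the order was Mbp, Mal, Mobp, Cnp, Cldn11, Mag, Mog and Opalin, with no overlap between neighbours. Mag was the fifth in WT-Control and the sixth in HD-Control libraries. In HD-WNT5B libraries Mal rose to 27955 ± 451 per kb and stood clear of Cnp (11402 ± 1243) and Cldn11 (9535 ± 657). Mog (4254 ± 372) there exceeded Mobp (3060.2 ± 85.6) and Mag (2579.8 ± 87.9), which it had been below in both control groups, and Opalin had the lowest level. The order depends on the length used: per kb of all annotated exons, Mal (9239.7) came before Cnp (7414) in WT-Control libraries, and Cldn11 (5579) before Mag (3921) and Mobp (3863). By that length Cnp was the third in both control groups, with 4476 in HD-Control libraries ahead of Mobp (3333). In HD-WNT5B libraries Cldn11 (9535) then came before Cnp (9099), and Opalin (1525) was above Mobp (1468). By either length Mbp led in each group, and Mog passed Mobp and Mag in HD-WNT5B libraries. Mag moved from the fifth to the sixth place between the control groups, again by either length. Mal came next after Mbp in HD-Control and HD-WNT5B libraries by either length, but in WT-Control libraries only per kb of all annotated exons.

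Within 1 library the share of each gene in the summed level per kb does not depend on the scale. It does depend on the length used, here that of the longest transcript. For Mbp that is 4797 bases, against 8469 bases of all annotated exons, while for Mal both are 2778. Mbp made up 52.9% of the set in WT-Control, 61.0% in HD-Control and 48.5% in HD-WNT5B libraries (means of 3). The share of Mal was 10.17 to 10.48% and 10.54 to 10.67% in the control groups and 22.94 to 24.37% in HD-WNT5B libraries. Mobp went the other way, from 9.01% and 9.14% to 2.61%. Mag took 7.34%, 4.39% and 2.2%, and Mog took 3.11%, 1.4% and 3.62%. The 3 libraries of each group had nearly the same make-up, the library labelled HD-WNT5B-2 included.

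Ratios between pairs of genes show the same without any scale. Mal over Mobp, per kb, was 1.14, 1.14 and 1.17 in WT-Control, 1.17, 1.13 and 1.17 in HD-Control and 8.86, 9.26 and 9.29 in HD-WNT5B libraries. The control groups overlapped, and the third group was far from both. Mog over Mag was 0.424 ± 0.0094, 0.32 ± 0.016 and 1.65 ± 0.171 (SD, n = 3), so it was lowest in HD-Control and highest in HD-WNT5B libraries, without overlap. Opalin over Mag was 0.0907 and 0.0884 in the control groups, whose ranges overlapped, and 0.624 in HD-WNT5B libraries. Cnp over Mbp was 0.197 in WT-Control, 0.121 in HD-Control and 0.2 in HD-WNT5B libraries, the first and last with overlapping ranges. With 3 libraries a group an exact permutation test of such a ratio cannot give a two-sided p below 0.1.

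**Figure D4:**
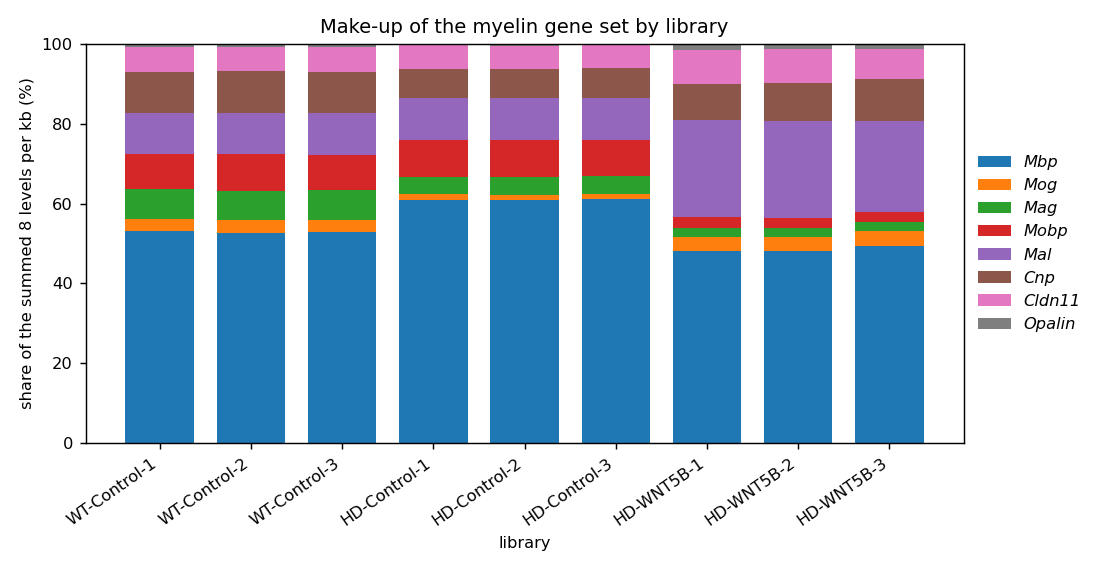
Share (%) of each gene in the summed level of the 8 genes, per kb of the longest transcript, 1 bar for each library. In the 3 HD-WNT5B libraries the band of Mal widens from about 10% to over 22%, and those of Mobp and Mag narrow.

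Other genes of the pathway were read from 7 lists of sheath, lipid, lineage and RNA-handling genes. Their counts stand beside the shares over all genes, which were 20.7% lower and 24.5% higher (median 0.02) in HD-Control against WT-Control and 41.7% lower and 35.8% higher (median -0.23) in HD-WNT5B against HD-Control. Of 20 other sheath, paranode and gap junction genes, 16 were lower in HD-Control than in WT-Control libraries, 2 higher and 2 not called (median log2 -0.78). Ermn, a cytoskeletal protein of late oligodendrocytes, fell by 1.66 on the log2 scale (limma adjusted p = 2.0e-06) and the neurofascin gene Nfasc, which anchors the paranode, by 0.49 (adjusted p = 2.7e-06). Omg, a surface glycoprotein of oligodendrocytes and neurons, was at 6528 and 6001 and not called (adjusted p = 0.31).

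Against HD-Control the same 20 genes in HD-WNT5B libraries divided into 7 higher, 10 lower and 3 not called (median -0.18, with -0.23 over all genes). Sirt2, a deacetylase of the sheath, rose by 1.31 and Jam3, a junction protein, by 1.81 (adjusted p = 1.9e-08 and 1.2e-07). Plekhb1, a membrane-associated protein, was at 19666 and 19308 and not called. Against WT-Control 5 of the list were higher and 14 lower (median -0.99), while 35.9% of all genes were higher and 42.1% lower (median -0.25). Among the lower was Tppp, a tubulin-binding protein of oligodendrocytes, 6.58-fold lower (limma adjusted p = 3.9e-09).

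Of 15 lipid synthesis genes, 11 were lower and 3 higher in HD-Control than in WT-Control libraries (median -0.75). The fatty acid hydroxylase Fa2h fell from 2871 to 888 (log2 -1.69, limma adjusted p = 2.2e-06), and the desaturase Scd2 from 133947 to 79894 (-0.75, adjusted p = 3.6e-07). Fdft1, squalene synthase of the sterol pathway, rose by 0.71 (adjusted p = 8.3e-06). In HD-WNT5B against HD-Control libraries 8 were higher and 6 lower (median 0.56, with -0.23 over all genes). Fdft1 rose further, by 1.92, the elongase Elovl1 by 2.11 and the ceramide desaturase Degs1 by 1.45, while Scd2 fell again, by 0.99 (adjusted p = 1.8e-09, 1.2e-08, 8.2e-09 and 1.8e-09).

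Of 13 differentiation factors, 4 were lower, 2 higher and 7 not called in HD-Control against WT-Control (median -0.13), so the 6 called of 13 are close to the 45.1% called over all genes. Sox10 fell from 3433 to 2635 (log2 -0.38, limma adjusted p = 8.0e-04) and Olig2 from 1609 to 949 (-0.76, adjusted p = 4.2e-04), while Myrf, the factor that switches on myelin genes in the last step, was at 6262 and 6852 and not called (adjusted p = 0.396). In HD-WNT5B against HD-Control libraries 6 were higher and 5 lower (median -0.22, with -0.23 over all genes). Myrf fell to 1941 ± 341 (-1.83, adjusted p = 6.8e-07) and Sox10 to 1531 ± 36 (-0.78, adjusted p = 2.2e-06), and Tcf7l2, a factor of the Wnt pathway present in maturing oligodendrocytes, rose from 273 to 1133 (2.03, adjusted p = 1.6e-06). Of the 4 genes with the MYRF motif in a window, Mog, Cnp and Opalin rose and Mag fell in that comparison. Of the genes with a window but no MYRF motif, Mal and Cldn11 rose and Mobp fell. Mbp had no window, and the part of MYRF in these changes was not tested.

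Of 9 inhibitors of differentiation, 7 were lower and none higher in HD-Control against WT-Control (median -0.81), and 2 were higher and 3 lower in HD-WNT5B against HD-Control (median -0.10). Hes5, a Notch target, went from 593 to 46.5 and then to 1312 ± 293 (log2 -3.59 and 4.71, limma adjusted p = 2.5e-06 and 3.8e-08). Of 9 precursor and newly formed cell genes, 5 were lower in HD-Control (median -0.63), and 3 were higher and 5 lower in HD-WNT5B against HD-Control (median -0.40). Pdgfra, the growth factor receptor of precursors, was at 3555 and 3134 in the control groups, not called, and fell to 1208 ± 143 (adjusted p = 5.0e-07). Bcas1, a gene of early myelinating cells, fell by 1.06 in HD-Control (adjusted p = 2.4e-06).

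Among 7 genes that handle myelin RNA, 4 were higher and 2 lower in HD-Control (median 0.19), and 2 were higher and 5 lower in HD-WNT5B against HD-Control (median -0.63, with -0.23 over all genes). Qk, an RNA-binding protein that stabilises Mbp RNA and steers Mag splicing, went from 21907 to 14093 to 18394 (limma adjusted p = 3.2e-05 for the fall). Fyn, the kinase that releases Mbp RNA for local translation, rose by 0.27 in HD-Control and fell by 1.70 in HD-WNT5B libraries (adjusted p = 3.9e-04 and 9.3e-10). Of 12 other genes of mature oligodendrocytes, 9 were lower and 2 higher in HD-Control (median -1.54), and 8 were higher and 2 lower in HD-WNT5B against HD-Control (median 0.89). The iron carrier Trf fell by 1.82 and then rose by 1.01 (adjusted p = 4.2e-08 and 3.5e-08). Apod, an apolipoprotein, and Ptgds, a prostaglandin synthase, rose at both steps, Apod from 10057 to 75226 to 311250 and Ptgds from 6756 to 46358 to 310547 (adjusted p = 1.0e-10 and 3.4e-11 for Apod, 6.7e-09 and 1.1e-10 for Ptgds). Meninges and other cells also make Apod and Ptgds, and their part was not tested.

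**Figure D5:**
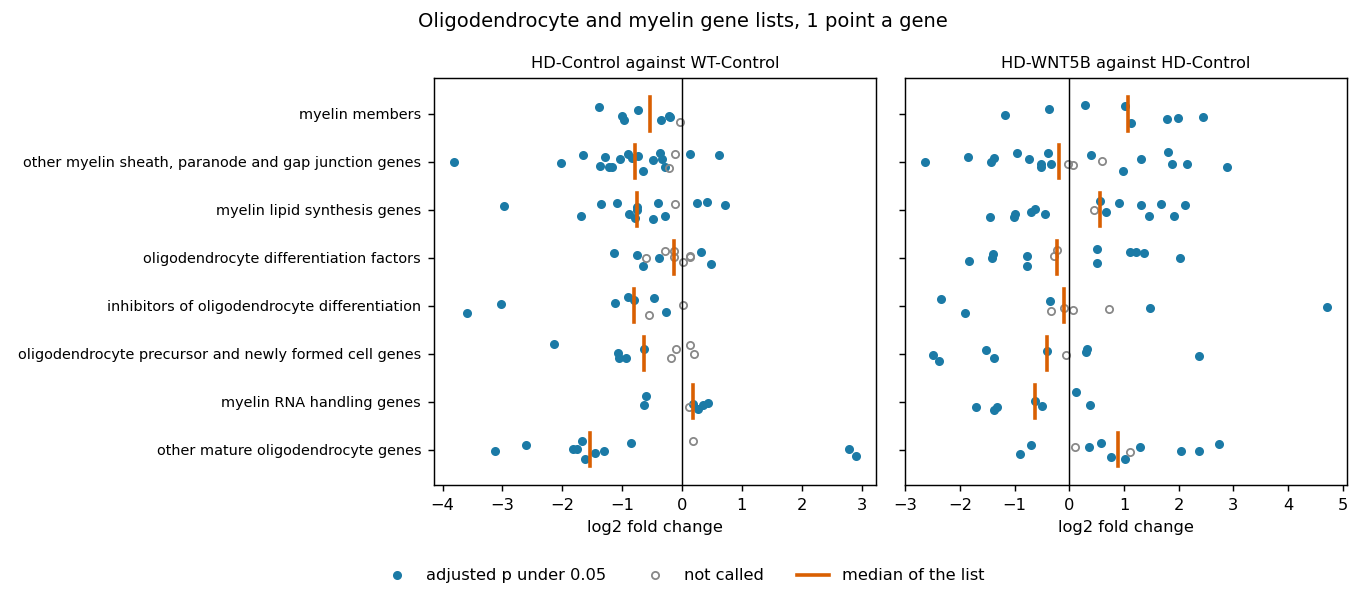
log2 fold change (x axis) of every tested gene of the 8 lists in HD-Control against WT-Control (left) and HD-WNT5B against HD-Control (right), filled where limma called the gene and open where it did not, with the list median as a bar. On the left the medians lie below 0 for all lists but RNA handling; on the right the 8 myelin genes have the highest median, 1.07, and every list holds genes on both sides of 0.

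The 8 genes did not share 1 profile. Each gene's log2 value was centred on its mean over the 9 libraries, and the mean of the 8 was taken as the common profile. Cnp was nearest to it (root mean square difference 0.087 on the log2 scale), followed by Cldn11 (0.209), Mbp (0.278), Mog (0.464), Mal (0.551), Opalin (0.661), Mag (0.697) and Mobp (0.898). Mobp ran against the profile (r = -0.64 over 9 libraries) and Mag did not follow it (r = -0.06). Because the 9 libraries form 3 groups, these are descriptions of group differences. Among 13073 other genes whose mean reached 100, the nearest included Sprn (0.046), Speg (0.051), Cd99l2 (0.055), Tep1 (0.058), Mtcl1 (0.060), H2afv (0.066), Nmt2 (0.066), Fam78b (0.066) and Mapt (0.068). Sprn went from 5115 to 3276.5 to 6088.5, and Mapt, the microtubule protein tau, from 31316 to 18744 to 35382. All 9 were closer to the common profile than Cnp, and none of them is on the myelin or oligodendrocyte lists.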

How the data were processed

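Poly(A) RNA of 9 mouse brain libraries was measured, 3 in each of 3 groups taken from the sample titles. The authors deposited 1 signal value per gene and library, with no header. Per the submitters' processing notes STAR was the aligner and mm10 the build. The program used for counting, its annotation, the normalization and tool versions were not given in the sources used here. The values themselves behave as read counts divided by 1 factor per library: 97.37 to 98.92% of low values are whole multiples of 1 step (tolerance 0.01), worth 0.616 to 0.808 in control and 1.61 to 2.14 in HD-WNT5B libraries. All 21853 identifiers matched GENCODE M21, which gave symbols, positions and transcript lengths.

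The 15411 genes that reached a value of 10 in 3 or more libraries were tested with limma 3.58.1 in R 4.3.3 on log2(value + 3), fitting 1 mean for each group to the 9 libraries together (residual degrees of freedom 6), with a variance trend. Fold changes are on that scale, which understates those of low genes. Calls are at a Benjamini-Hochberg adjusted p under 0.05 over all genes tested. The procedure was tested on simulated data, in which a small part of the genes changed and no shift in library totals was put in. That test does not cover the effect of the scale in these data. Precision is limited by 3 libraries a group, and the depth per library is given with the results.

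All 8 genes are named in every comparison. From each other list the rule takes up to 4 called genes with the smallest p and up to 2 uncalled genes with the highest mean, of which the text gives a part, and some named by it are not reported here; the 10 genes nearest the common profile have a mean of at least 100. The genes, lists and rule were chosen with earlier results of these data known. Alternatives changed the scale, constant, filter, weights, groups fitted, replicate block, the trend on length and GC content (a spline with 5 degrees of freedom per library) or left out single libraries. RefSeq promoter windows (GRCm38.p6) were searched for exact motif letters.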

Additional observations from a re-analysis of the deposited data

How the results depend on the processing

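Of 528 fold changes of the 8 genes (3 comparisons under 22 alternatives), 519 kept their direction and their side of the threshold. The 5 that reversed were Mbp in HD-Control against WT-Control with the length and GC trend removed (0.01, and 0.01 with the replicate block as well), Mbp in HD-WNT5B against HD-Control (-0.26) and against WT-Control (-0.32), and Cnp against WT-Control (-0.29), the last 3 with equal totals. Counts of the 8 genes in HD-WNT5B against WT-Control were then 3 higher and 4 lower. The median of all genes with equal totals was -0.80 there, and the shares called over all genes at that scale are not reported here. Against WT-Control, Mog (0.03, equal totals) and Cnp (0.16, upper-quartile factors, adjusted p = 0.0693) lost their calls, and Mbp in HD-Control against WT-Control (-0.03) was called with a weight per group and with only the 6 libraries compared. Genes called in HD-Control against WT-Control rose from 6957 to 12779 and 12908 under those settings. Leaving out 1 library at a time gave 5512 to 8954, 11156 to 12587 and 11286 to 12676 genes called in the 3 comparisons in the order of the report, and changed no count of the 8 genes called. With the replicate number as a block, 6402, 11782 and 11891 genes were called and no count of the 8 genes changed. Same-numbered libraries shared only a number (correlations of their deviations -0.08 to 0.02). Of these shifts, the cause was not tested. Count models planned on recovered reads were not run. The lower depth of HD-WNT5B libraries limits low genes most.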
